A study of Mus musculus with 12 samples.

Results

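The genes described here are 7 small nucleolar RNA (snoRNA) host genes, Gas5, Snhg1, Snhg3, Snhg5, Snhg6, Snhg8 and Snhg12, in mouse CD8+ T cells. They were taken by symbol from the deposited table of 13780 genes, each symbol occurred once, and 7 of 7 passed the filter on low counts. The cells came from spleens of C57BL/6J mice, tagged WT (wild type) in the names of the activated libraries, and were enriched with magnetic beads that bind CD8. Naive cells were frozen at once, without activation or treatment. The media group was activated for 72 h with beads carrying anti-CD3 and anti-CD28 and with 10 U/ml IL-2 in plain media. The lactate group was activated in the same way for 72 h in media with 40 mM sodium lactate. Each group had 4 libraries. The control was plain media, so sodium and osmolality differed between the activated groups together with lactate, and the parts of these in a result cannot be told apart.

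snoRNAs are short nuclear RNAs that guide the chemical modification of ribosomal RNA, and a few take part in cutting its precursor. In mammals most are made from introns: the host transcript is spliced, the intron is trimmed, and a snoRNA with its bound proteins is released. Box C/D snoRNAs guide 2′-O-methylation and box H/ACA snoRNAs guide pseudouridylation. Host genes such as Gas5 code for no long protein. Many of them begin with a 5′ terminal oligopyrimidine (TOP) tract like that of ribosomal protein mRNAs, and their spliced transcripts are known targets of nonsense-mediated decay, which depends on translation. T cell activation is known to raise ribosome production.

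In GENCODE M21 (GRCm38) the 7 genes held 27 snoRNA loci on their own strand, from 60 to 205 bases long. Gas5 (ENSMUSG00000053332, chr1:161034422-161038539, plus strand) held 9, and Snhg1 (ENSMUSG00000108414, chr19:8723475-8726443, plus strand) held 8. Snhg3 (ENSMUSG00000085241, chr4:132348014-132353686, minus strand) held 2, and Snhg5 (ENSMUSG00000097195, chr9:88521050-88522929, minus strand) held 2. Snhg6 (ENSMUSG00000098234, chr1:9941959-9944118, minus strand) and Snhg8 (ENSMUSG00000104960, chr3:123507552-123508404, minus strand) held 1 each. Snhg12 (ENSMUSG00000086290, chr4:132308623-132311024, plus strand) held 4, and it lies near Snhg3 on the same chromosome.

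One snoRNA of each host is printed to show what the introns carry, with a pair for Snhg12, which holds both kinds. Capitals mark the C box (TGATGA) and the D box (CTGA), or the ACA that stands 3 bases before the 3′ end.
Snord47 in Gas5 (chr1:161038082-161038158): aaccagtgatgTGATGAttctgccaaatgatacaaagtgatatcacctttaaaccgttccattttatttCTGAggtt
Gm25855 in Snhg1 (chr19:8723993-8724064): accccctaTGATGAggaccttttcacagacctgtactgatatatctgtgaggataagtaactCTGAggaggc
Snord50a in Snhg5 (chr9:88521529-88521600): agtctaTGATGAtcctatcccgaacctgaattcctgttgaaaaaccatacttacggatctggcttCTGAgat
Snord87 in Snhg6 (chr1:9942463-9942549): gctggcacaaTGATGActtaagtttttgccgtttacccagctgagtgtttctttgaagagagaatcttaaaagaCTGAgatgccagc
Snord99 in Snhg12 (chr4:132310691-132310764): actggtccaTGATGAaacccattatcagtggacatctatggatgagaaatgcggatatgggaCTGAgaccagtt
Snora61 in Snhg12 (chr4:132310240-132310369): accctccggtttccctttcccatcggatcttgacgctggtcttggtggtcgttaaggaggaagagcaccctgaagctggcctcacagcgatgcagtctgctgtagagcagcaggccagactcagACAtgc
Snora24 in Snhg8 (chr3:123507937-123508066): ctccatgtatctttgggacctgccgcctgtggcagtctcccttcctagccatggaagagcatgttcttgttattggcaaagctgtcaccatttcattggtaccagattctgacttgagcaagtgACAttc
Snora73a in Snhg3 (chr4:132352775-132352979): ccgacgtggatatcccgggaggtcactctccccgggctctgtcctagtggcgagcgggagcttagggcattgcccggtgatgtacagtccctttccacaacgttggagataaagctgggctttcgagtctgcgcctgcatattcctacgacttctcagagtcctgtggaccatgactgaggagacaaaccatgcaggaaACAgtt

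By these letters 15 of the 27 loci were box C/D and 5 were H/ACA, and for 7 loci the letters were not at those places. Gas5, Snhg1, Snhg5 and Snhg6 had C/D loci and no H/ACA locus, Snhg3 and Snhg8 had H/ACA loci and no C/D locus, and Snhg12 had both. Libraries were made from poly(A) RNA, which mature snoRNAs lack, so the values that follow are of the host transcripts, save for the 2 of the 27 snoRNA genes that were in the table, Snord87 and Snora73b, which are described with their hosts.

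**Figure D1:**
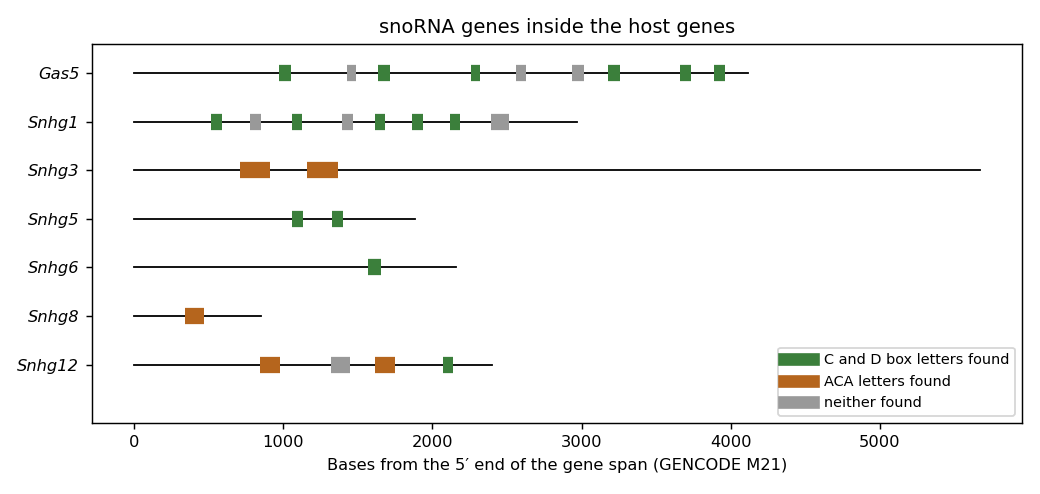
The x axis gives bases from the 5′ end of each gene's span in GENCODE M21, the black lines are the gene spans and the blocks are snoRNA loci, coloured by the box letters found. Gas5 carries 9 loci and Snhg1 carries 8, while Snhg6 and Snhg8 carry 1 each.

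The counts of these genes can hold reads from unspliced RNA. For Snhg1, Snhg8 and Snhg12 the length used in the table equals the whole span of the gene (2969, 853 and 2402 bases), because the exons of all annotated transcripts together cover it, introns of the spliced forms included, and for Gas5 it covers 91.3% of the span. For Snhg3 (986 bases) and Snhg6 (1146 bases) no locus lies in a counted exon. Snhg5 has a length of 3634 bases in the table against a span of 1880 bases in M21, so the gene model used for counting was a longer one. Of the exons of Snhg3, 13.7% are shared with Rcc1 on the same strand and 71.5% lie opposite the lincRNA Gm17300, and of those of Snhg6, 11.1% lie opposite Mcmdc2. Whether reads were counted by strand is not stated, so the values of Snhg3 and Snhg6 are less certain than those of the other members.

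Total counts per library ranged from 14726904 to 21478137. Levels are given as CPM, the counts of a gene relative to the total of its library after TMM scaling, and 1 quasi-likelihood model of edgeR was fitted to all 12 libraries and 13767 genes. Calls needed a two-sided Benjamini-Hochberg adjusted p no higher than 0.01. CPM are shares of a library, so RNA per cell was not measured, and in these bulk samples fewer cells of a type and less RNA per cell cannot be told apart. Summed markers of CD8+ T cells (Cd3e, Cd3d, Cd8a, Cd8b1, Trac) were between 1776 and 3566 CPM in every library. The naive libraries also held B cell markers (4 of 4 tested genes, 392 to 954 CPM summed), myeloid and dendritic cell markers (6 of 6, 357 to 1129 CPM) and red cell markers (2 of 2, 42.4 to 1736 CPM). In activated libraries these sums were at most 14.7, 1.15 and 0.820 CPM, with Xcr1 at 0 in all 8. Naive replicate 4 had the lowest sum of CD8+ T cell markers, 1776 CPM, and the lowest level of each of the 7 members among naive libraries. The part of these markers in the differences from naive cells was not tested.

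Together the 7 host genes took 560 ± 83.0 CPM (mean ± SD, n = 4) in naive cells, 1064 ± 96.9 CPM in media and 1078 ± 137 CPM with lactate. The lowest activated library, at 882 CPM, was above the highest naive library, at 633 CPM. The range with lactate (882 to 1192 CPM) took in the range in media (971 to 1161 CPM). Gas5 alone made up 48.8% of the sum in naive cells, 56.3% in media and 57.7% with lactate.

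Of the 7 genes, 4 (57.1%) were called higher in media than in naive cells: Gas5, Snhg1, Snhg5 and Snhg6. The others, Snhg3, Snhg8 and Snhg12, were not called. Over all genes tested, 57.5% were called in this comparison, 28.5% higher and 29% lower. The groups did not overlap for the same 4 members, all higher in media, where 61.2% of all genes did not overlap, 30.7% higher and 30.5% lower. The median log2 fold change of the members was 0.58, against -0.03 over all genes. With lactate against naive cells 4 were again higher, Gas5, Snhg3, Snhg5 and Snhg6, with a median of 0.75 against 0.01 over all genes, where 65% of genes were called, 33% higher and 32% lower, and 67.8% did not overlap, 35% higher and 32.8% lower. These comparisons share their naive libraries.

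Gas5, the growth arrest-specific transcript and the most abundant member, had 253, 295, 299.7 and 239 CPM in naive replicates 1 to 4. It had 538, 579, 626 and 649 CPM in media and 495, 706, 661 and 628 CPM with lactate. Every activated library was above every naive library, and the activated groups overlapped. By edgeR the rise from naive cells was 1.14 on the log2 scale in media (SE 0.12, adjusted p = 4.42e-06). It was 1.20 with lactate (SE 0.12, adjusted p = 2.12e-06). Lactate against media gave 0.06, with a 95% interval from -0.21 to 0.32 (adjusted p = 0.744 from edgeR).

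Snhg6, the host of Snord87, changed most with activation. It had 23.0, 22.7, 27.9 and 20.4 CPM in naive cells. The media libraries had 111, 90.0, 125 and 115 CPM and the lactate libraries 94.3, 126, 110.4 and 97.8 CPM. No activated library came near the naive range. Its level was 4.69-fold higher in media than in naive cells (2.23 on the log2 scale, SE 0.14, adjusted p = 4.11e-08 by edgeR) and 4.56-fold higher with lactate (2.19, standard error 0.14, adjusted p = 3.67e-08). Between lactate and media the difference was -0.04 on the log2 scale (95% interval -0.33 to 0.24, adjusted p = 0.837), and the samples were mixed.

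Snord87 itself, read at its own locus in the intron of Snhg6, was counted from few reads (3 to 32 per library), and it was singled out after its values were seen. It had 0.789, 0.721, 1.56 and 1.23 CPM in naive cells, 0.185, 0.327, 0.669 and 0.188 CPM in media and 1.64, 1.15, 0.707 and 0.915 CPM with lactate. Media was below both other groups without overlap, while the host was higher in media than in naive cells. By edgeR Snord87 was lower in media than in naive cells by -1.64 on the log2 scale (SE 0.46, adjusted p = 0.00642), and lactate against media gave 1.69 (SE 0.46, adjusted p = 0.0111), which missed the threshold. The call against naive cells was lost in 6 of 19 alternative settings: without naive replicate 3 (adjusted p = 0.0167) or 4 (0.0125), without media replicate 1 (0.0231), 2 (0.0170) or 4 (0.0165), and with a block by title number (0.0118). Poly(A) selection keeps mature snoRNAs poorly, and whether these reads come from the mature snoRNA or from unspliced host RNA was not tested.

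Snhg5, which carries Snord50a and Snord50b, had 38.7, 47.1, 46.1 and 32.1 CPM in naive cells, 68.2, 70.6, 77.6 and 84.7 CPM in media and 55.9, 68.4, 76.5 and 74.4 CPM with lactate. Here too every activated library lay above the naive ones. The rise was 0.88 on the log2 scale in media (standard error 0.14, adjusted p = 0.000112 from edgeR) and 0.75 with lactate (standard error 0.14, adjusted p = 0.000326). Lactate against media gave -0.13 (95% interval -0.43 to 0.17, adjusted p = 0.487).

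Snhg1, the second host with many C/D loci, had 124, 128, 138 and 85.6 CPM in naive cells, 157, 156, 194 and 203 CPM in media and 119, 161, 165 and 169 CPM with lactate. All media libraries were above all naive libraries, while lactate replicate 1 lay inside the naive range. In media it was 0.58 higher on the log2 scale (SE 0.16, adjusted p = 0.00611 by edgeR), and 0.37 with lactate did not pass (SE 0.16, adjusted p = 0.0506). Among libraries with low running numbers these differences were 0.38 and 0.09. Among those with high running numbers, where naive cells had 1 library, they were 1.24 and 0.97. Lactate against media gave -0.21 (95% interval -0.56 to 0.14, adjusted p = 0.328). The call in media was near the threshold. It was lost in 10 of 20 alternative settings, among them the removal of any single naive replicate (adjusted p from 0.0106 to 0.0201). Removal of media replicate 3 (0.0194), media replicate 4 (0.0379), lactate replicate 3 (0.0163) or lactate replicate 4 (0.0156) ended it too.

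**Figure D2:**
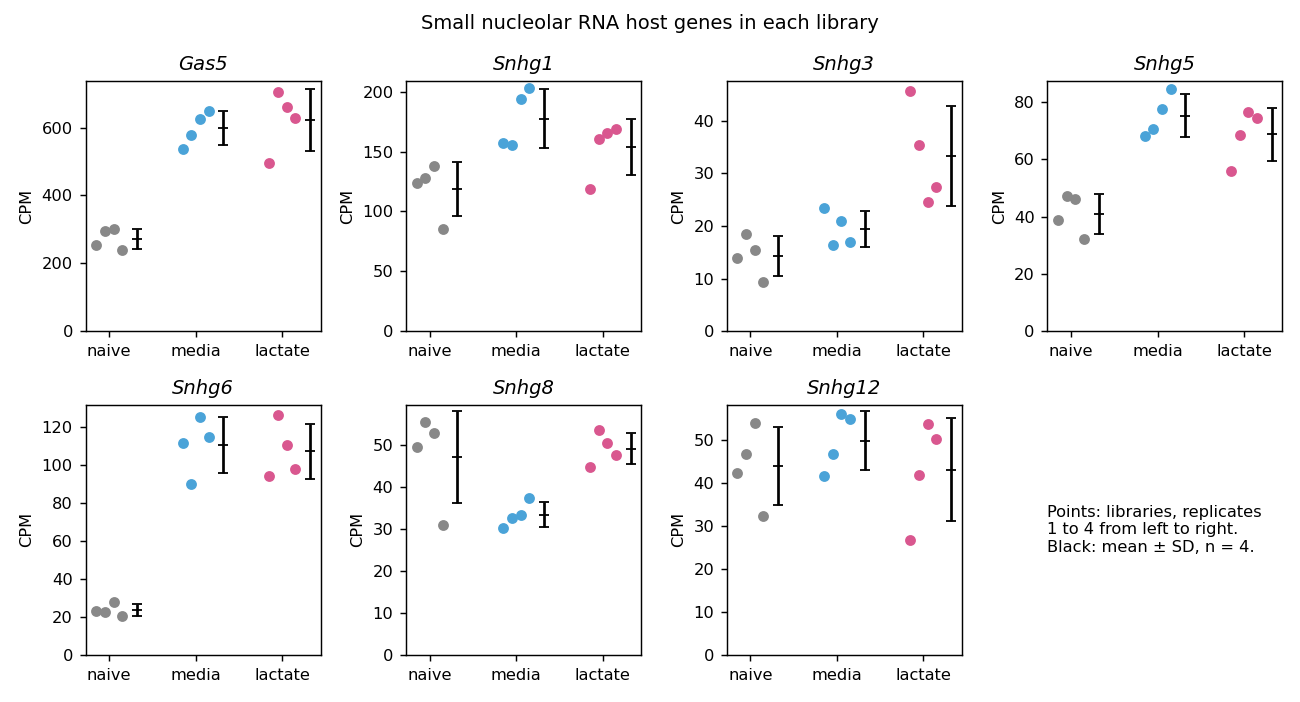
Each panel gives the TMM-scaled CPM of 1 host gene (y axis, from 0) in the naive, media and lactate libraries (points, replicates 1 to 4 from left to right) with the mean ± SD of 4 in black. Gas5, Snhg5 and Snhg6 are higher in every activated library than in every naive one, while the lactate points of Snhg3 and Snhg8 lie above all media points.

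The remaining members host H/ACA loci. Snhg8, the host of Snora24, had 49.5, 55.5, 52.8 and 31.0 CPM in naive cells, 30.3, 32.7, 33.3 and 37.4 CPM in media and 44.9, 53.6, 50.5 and 47.7 CPM with lactate. Lactate and media did not overlap, and 3 of the 4 naive libraries lay at or above the middle of the lactate range. Naive replicate 4 was at the level of media. The fitted difference between media and naive cells was -0.50 (standard error 0.16, adjusted p = 0.0132 from edgeR), just outside the threshold, and that between lactate and naive cells 0.06 (standard error 0.16, adjusted p = 0.746). Without naive replicate 4 the difference between media and naive cells was -0.66 and passed (adjusted p = 5.05e-05), and without media replicate 4 it also passed (-0.62, adjusted p = 0.00781). Between the libraries with high running numbers, 1 naive and 1 media, media was higher by 0.27 on the log2 scale, against -0.71 between those with low numbers.

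Snhg12, with H/ACA and C/D loci, had 42.4, 46.7, 54.0 and 32.3 CPM in naive cells, 41.6, 46.6, 56.1 and 54.9 CPM in media and 26.6, 41.9, 53.6 and 50.2 CPM with lactate. The 3 groups overlapped, and lactate replicate 1 was the lowest library of all. No comparison was called: the log2 fold changes were 0.18 for media and -0.03 for lactate against naive cells (95% intervals -0.27 to 0.64 and -0.48 to 0.43, adjusted p = 0.456 and 0.918 from edgeR). Among low library numbers these differences were 0.01 and -0.50, and among high ones, with 1 naive library, 0.76 and 0.68.

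Snhg3, which carries the pair Snora73a and Snora73b of the rRNA-processing U17 type, had 13.9, 18.4, 15.4 and 9.41 CPM in naive cells, 23.4, 16.4, 20.8 and 16.9 CPM in media and 45.7, 35.3, 24.5 and 27.5 CPM with lactate. Media overlapped naive cells, and every lactate library was above every other library. The increase with lactate over naive cells was 1.22 on the log2 scale (standard error 0.23, adjusted p = 0.000414 from edgeR), and that in media was 0.44 (standard error 0.23, adjusted p = 0.11) and did not pass. Snora73b (chr4:132352322-132352526), an intronic snoRNA of Snhg3 that the table lists, had 1.86, 1.92, 2.48 and 1.90 CPM in naive cells, 2.36, 1.69, 2.12 and 0.752 CPM in media and 6.87, 5.61, 2.41 and 2.698 CPM with lactate. Lactate lay above media without overlap, from 12 to 134 reads per activated library. The difference of 1.34 on the log2 scale (SE 0.39, adjusted p = 0.0166 by edgeR) missed the threshold as that of its host did. Whether the reads of Snora73b come from the mature snoRNA or from unspliced RNA was not tested.

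Sodium lactate against media called 0 of the 7 genes with edgeR, where 25.1% of all genes tested were called, 13.9% higher and 11.1% lower. At an unadjusted p under 0.05 there were 2, Snhg3 and Snhg8, both higher, and the share of all genes at that limit was not counted. DESeq2 called these 2 at the same adjusted threshold, where it called 4551 of the 13767 genes, 2244 higher and 2307 lower. The median of the members was -0.04 on the log2 scale, against 0.00 over all genes. It ran from -0.13 (without media replicate 2) to 0.0241 (without media replicate 3) when single libraries were left out, was 0.0168 without lactate replicate 1 and -0.13 without lactate replicate 2, and was -0.15 with the block by tag and run, so its sign was not settled. Lactate and media did not overlap for 2 of the 7, both higher, where 44.7% of all genes tested did not, 23.2% higher and 21.5% lower.

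Snhg3 was 1.71-fold higher with lactate (log2 fold change 0.78, standard error 0.23, 95% interval 0.28 to 1.28) at an adjusted p of 0.0175 from edgeR, above the threshold of 0.01. An exact two-sided permutation test, with 70 ways to split the 8 libraries, gave p = 0.0286, the smallest it allows. Groups that do not overlap always give this p, and 44.7% of all genes did not overlap here. The test therefore adds nothing to the lack of overlap. The log2 difference of Snhg3 was 1.00 among libraries with low running numbers and 0.62 among those with high ones, where media had 1 library. The activated libraries carry a mouse tag (WT1 to WT3), and WT1 and WT2 occur in both runs of library numbers. With tag and run together as a block in the 8 activated libraries Snhg3 passed (0.82, adjusted p = 0.000973), and with the tag alone it did not (0.69, adjusted p = 0.0149). It passed with a term for the run of library numbers (0.88, adjusted p = 0.00129) and without naive replicate 4 (0.78, adjusted p = 0.00613). Rcc1, the mitotic regulator with which Snhg3 shares exon sequence, was called higher in the same comparison, from 57.2 ± 12.1 to 127 ± 24.4 CPM (log2 fold change 1.15, adjusted p = 0.000252). Its part in the counts of Snhg3 was not tested.

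Snhg8 was 1.47-fold higher with lactate than in media (log2 fold change 0.56, standard error 0.16, 95% interval 0.22 to 0.90, adjusted p = 0.014 from edgeR). The exact permutation test again gave its smallest p of 0.0286, which follows from the lack of overlap. Snhg8 passed with the block by tag and run (0.54, adjusted p = 0.00436), with the tag alone (0.59, adjusted p = 0.00173) and without naive replicate 4 (0.56, adjusted p = 0.000341). The log2 difference was 0.61 among low and 0.39 among high library numbers. For the other 5 members, Gas5, Snhg1, Snhg5, Snhg6 and Snhg12, the difference lay between -0.21 and 0.06, and the 95% intervals together ran from -0.66 to 0.32. A difference of 2-fold in either direction lies outside each of these intervals. The largest in size were those of Snhg1 and of Snhg12 (-0.21 each, adjusted p = 0.328 and 0.464).

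**Figure D3:**
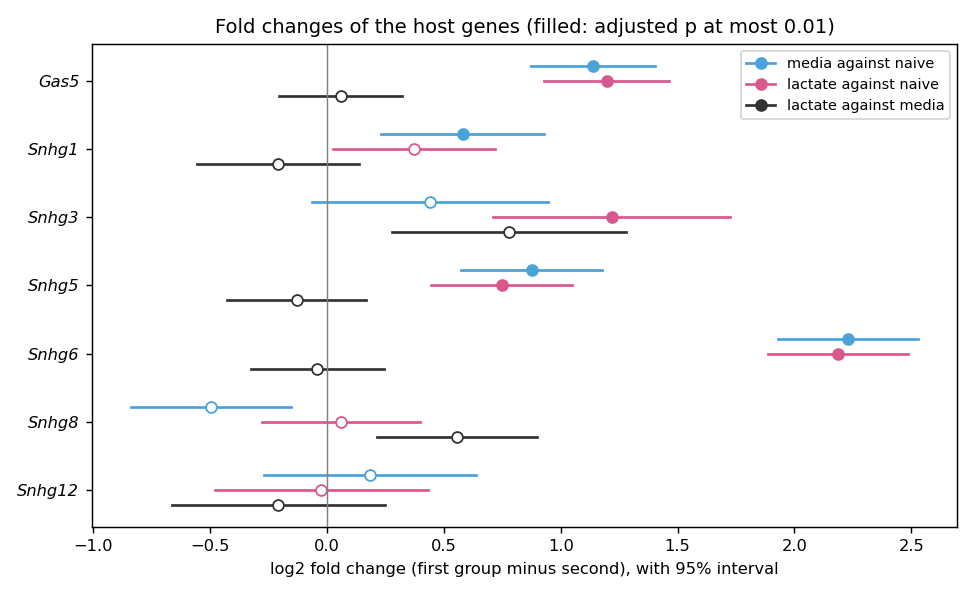
Points are log2 fold changes of each host gene (x axis, first group minus second) in 3 comparisons, lines are 95% intervals, and filled points passed an adjusted p of at most 0.01. Snhg6 lies near 2.2 in both comparisons with naive cells, and the 7 points of lactate against media, from -0.21 to 0.78, are all open.

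Levels between genes were compared as TPM, library shares in which each count is first divided by gene length. Gas5 was first in each group, with 246 TPM in naive cells, 551 in media and 521 with lactate, and only 1.6% of the genes of the table were above it in media. In naive cells Snhg8 followed at 188 TPM, with a range that overlapped Snhg1 at 136 TPM, and below these stood Snhg6, Snhg12, Snhg3 and Snhg5 at 69.9, 62.0, 49.1 and 38.3 TPM, each overlapping the next. In media Snhg6 was second at 334 TPM and Snhg8 stood at 136 TPM, behind Snhg1 at 207 TPM, with no overlap among these 4. Snhg12 (71.7 TPM), Snhg5 (71.7 TPM) and Snhg3 (68.3 TPM) could not be ordered. With lactate Snhg8 (182 TPM) and Snhg1 (163 TPM) overlapped, and Snhg3 (107 TPM) overlapped neither Snhg5 (59.5 TPM) nor Snhg12 (56.1 TPM). The lengths of Snhg1, Snhg8, Snhg12 and Gas5 include introns of spliced forms, and that of Snhg5 (3634 bases) is longer than its M21 exons (1730 bases), each of which lowers the TPM. The place of Snhg5 in the order, last in naive cells, depends on that length and is not settled.

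**Figure D4:**
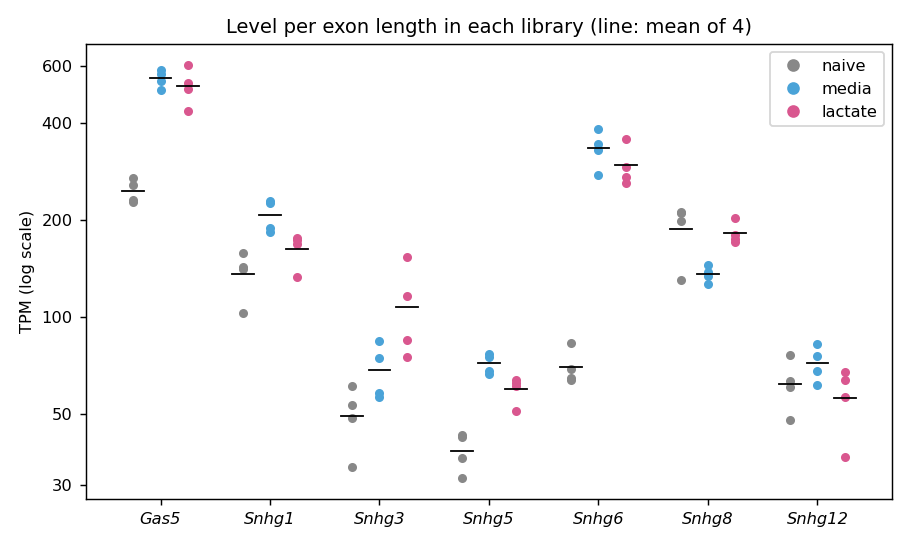
The y axis (log scale) is TPM of each host gene in each of the 12 libraries, with a line at the mean of 4. Gas5 is the highest in each group, and Snhg6 moves from 69.9 TPM in naive cells to 334 TPM in media.

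The transcript starts are shown because a TOP tract is the feature these hosts are known for. RefSeq (GRCm38.p6) gave 7 start windows for 6 members and none for Snhg6. Printed are 20 bases before the annotated start and 30 from it, on the strand of the gene, with capitals on the run of C and T that opens with a C and at least 4 more pyrimidines within 10 bases of the start. The window of Snhg1 and the first window of Gas5, which is not printed, held no such run.
Gas5, second window (chr1:161035146-161035195, plus): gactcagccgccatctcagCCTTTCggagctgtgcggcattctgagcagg
Snhg8 (chr3:123508307-123508356, minus): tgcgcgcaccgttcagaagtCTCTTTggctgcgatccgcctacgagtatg
Snhg12 (chr4:132308658-132308707, plus): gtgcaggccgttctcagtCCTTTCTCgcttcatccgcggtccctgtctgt
Snhg5 (chr9:88522868-88522917, minus): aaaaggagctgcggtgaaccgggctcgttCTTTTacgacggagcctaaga
Snhg3 (chr4:132353657-132353706, minus): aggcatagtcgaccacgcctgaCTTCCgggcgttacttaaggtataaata
Snhg1 (chr19:8723467-8723516, plus): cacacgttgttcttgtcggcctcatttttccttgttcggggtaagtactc

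Such a run stood within 10 bases of the start in 5 of the 7 windows, where 30.7% of 32851 RefSeq promoter windows had one, and exactly at the start in 2 (Gas5 and Snhg8), where 2.51% did. Gas5 (second window) and Snhg5, called higher in both activated groups, and Snhg3, called higher with lactate against naive cells, hold such a run. So do Snhg8 and Snhg12, which were called in no comparison. Snhg1, called higher in media, does not by this rule, though its window holds a run of C and T near the start that opens with T. A part of such runs in these levels was not tested. The E-box CACGTG, a palindrome that reads alike on both strands, was in 0 of the 7 windows of 300 bases and in 7.15% of all windows. These matches are letters only, and annotated starts can be off by some bases.

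Of the 3 genes that start within 2000 bases of a member on the other strand, Gm17300, 1914 bases from Snhg3, was not in the table. The others were Slc3a2, the heavy chain of amino acid transporters, 106 bases from Snhg1, and Zbtb37, a zinc finger gene, 427 bases from Gas5. The mean level of Slc3a2 was 187 ± 18.1 CPM in naive, 262 ± 66.0 CPM in media and 388 ± 23.9 CPM in lactate libraries, and its increase with lactate over media (0.56 on the log2 scale, adjusted p = 0.0126 from edgeR) missed the threshold. Snhg1 differed by -0.21 in that comparison. Zbtb37 dropped from 63.6 ± 1.59 CPM in naive cells to 28.5 ± 9.58 CPM in media (log2 fold change -1.16, adjusted p = 0.00103 from edgeR), while Gas5 rose.

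Other non-coding hosts went with activation in both directions. Of 9 tested, 2 rose in media against naive cells, Zfas1 (1.77, from 61.5 to 209 CPM) and Epb41l4aos (0.81, from 19.5 to 34.3 CPM). Another 2 fell, Snhg15 (-0.67, from 38.4 to 24.2 CPM) and Snhg17 (-0.62, from 52.9 to 34.5 CPM). This is 44.4% called, against 57.5% of all genes. Lactate against media raised 2, Snhg17 (1.02, adjusted p = 0.000168 from edgeR) and Snhg15 (0.77, adjusted p = 0.00112), and lowered none, so 22.2% of the list was called, near the 25.1% of all genes. Zfas1 (-0.02, adjusted p = 0.941) and Epb41l4aos (-0.28, adjusted p = 0.123) were not called. Thus Snhg15 and Snhg17, like Snhg8, had lower fitted levels in media than in naive cells and higher levels with lactate than in media, although for Snhg8 neither difference passed.

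Host genes that also code for protein were counted next. With lactate against media 6 of 17 were higher and 0 lower (median 0.28), which is 35.3% called against 25.1% of all genes. Among the 4 most abundant, Rack1, a ribosomal scaffold protein, rose (0.37, adjusted p = 0.00821 from edgeR), and Eef2, an elongation factor (0.11, adjusted p = 0.37), Rps3 (0.20, adjusted p = 0.127) and Rpl3 (0.09, adjusted p = 0.523), both ribosomal proteins, were not called. Against naive cells 7 were higher in media and 2 lower, or 52.9% called where 57.5% of all genes were. With lactate against naive cells 13 were higher and 1 lower, or 82.4% called against 65% of all genes.

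Transcripts were also counted for the proteins that bind snoRNAs and assemble them into particles (snoRNPs). Of 17 such genes tested, 16 were higher with lactate than in media (median 0.94), or 94.1% against 25.1% of all genes, Nufip1 was not called, and none was lower. The count was 15 or 16 in each of 22 alternative settings. Nolc1, the nucleolar chaperone of snoRNPs, rose from 74.8 ± 21.1 to 267 ± 60.2 CPM (log2 fold change 1.83, adjusted p = 8.01e-05 from edgeR), and Nop56, a core protein of C/D snoRNPs, from 112 ± 23.8 to 311 ± 44.3 CPM (1.48, adjusted p = 7.4e-05). Nop58, its C/D partner, rose by 1.07 and Ruvbl2, an assembly ATPase, by 0.63. In media against naive cells 7 of the 17 were higher and none lower, Ruvbl2 among them (1.32). This is 41.2% called, against 57.5% of all genes, 28.5% higher. By edgeR Nolc1 (-0.50, adjusted p = 0.0404), Nop56 (-0.38, adjusted p = 0.0518) and Nop58 (0.22, adjusted p = 0.188) were not called. Without naive replicate 2 the count of 7 became 4. Nop56 and Dkc1 stand in this list and in that of protein-coding hosts.

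Factors of nonsense-mediated decay, the pathway that removes many spliced host transcripts, differed among themselves. With lactate against media 5 of 15 were higher, namely the helicase Upf1 (0.43, adjusted p = 0.00532 from edgeR) and Eif4a3, Rbm8a, Magoh and Magohb of the exon junction complex, and 1 was lower, the nuclease Smg6 (-1.34, from 133 to 52.6 CPM, adjusted p = 5.56e-05). This is 40% of the list, against 25.1% of all genes. The kinase Smg1 (-0.52, adjusted p = 0.0384) and Casc3 (-0.01, adjusted p = 0.979) were not called. Against naive cells Smg1 was lower in media (-1.12) and with lactate (-1.63). In media 2 of the list rose and 5 fell, or 46.7% called against 57.5% of all genes. No member was called between lactate and media, and a part of decay in their levels was not tested.

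Of 13 genes that act on TOP mRNAs or in mTORC1 signalling, 2 were higher with lactate than in media, the TOP-binding protein Larp1 (0.80, from 358 to 621 CPM, adjusted p = 0.00138 from edgeR) and Larp4, a poly(A)-linked RNA-binding protein (0.74, adjusted p = 0.00336), and Tsc1, an inhibitor of mTORC1, was lower (-0.48). The 3 are 23.1% of the list, near the 25.1% of all genes, so the count says nothing particular to it. Myc, a driver of ribosome production, went from 362 ± 141 CPM in media to 613 ± 35.0 CPM with lactate without overlap (0.76, adjusted p = 0.0293) and did not pass. Eif4ebp2 was at 0.04 (adjusted p = 0.792). In media against naive cells 1 rose and 3 fell, or 30.8% called against 57.5% of all genes. Only 2 in all were called there without naive replicate 4 or without media replicate 1. Without media replicate 2 or lactate replicate 3 the count for lactate against media was 1 instead of 3.

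**Figure D5:**
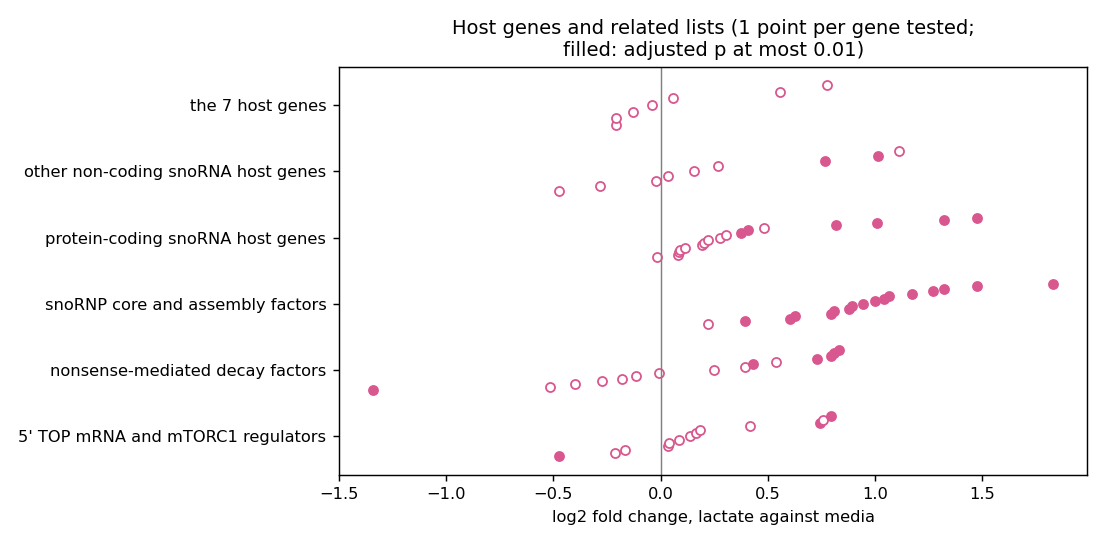
Each point is 1 gene, the x axis is its log2 fold change for lactate against media, and filled points passed an adjusted p of at most 0.01. All 7 host genes are open, between -0.21 and 0.78, while 16 of 17 snoRNP factors are filled on the right.

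The genes whose profile was most like that of the members were sought by Pearson's r, over the 12 libraries, between log2 CPM and the mean of the members' standardised log2 CPM. Each member is part of the mean it was compared with, which raises its own r. Snhg5 (0.94), Gas5 (0.91) and Snhg1 (0.91) had the highest values and Snhg8 the lowest (0.20), with Snhg12 at 0.53. Outside the members the 8 highest were Hddc2 (0.97), Cops9 (0.965), Smyd3, Hsp90ab1, Insl6, Pvt1, Ndufb11 and Chchd3 (each 0.96). Pvt1, a non-coding gene next to Myc, rose in media against naive cells by 1.36 on the log2 scale and Hsp90ab1, a cytosolic chaperone, by 0.84. None of the 8 was called between lactate and media. The libraries share their groups, and in all 8 genes naive cells were below both activated groups, so the libraries are not independent points.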

How the data were processed

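RNA-seq (TruSeq stranded mRNA) was analysed in 12 libraries of mouse CD8+ T cells. The authors aligned reads to GRCm38 with STAR 2.7.5b, removed PCR duplicates and used featureCounts to count reads with a single alignment over annotated exons. The deposited values are raw counts per gene, not normalized, with the gene length. Here R 4.3.3, edgeR 4.0.16, limma 3.58.1 and DESeq2 1.42.0 were used. A gene had to reach 1 CPM in a minimum of 3 libraries (13767 of 13780 did). Libraries were scaled with edgeR's TMM factors and all genes were fitted in 1 quasi-likelihood model without a block. The code was tested on simulated data. Standard errors are the log2 fold change over the square root of F. Log2 CPM used a prior count of 2. No library was left out.

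The members and lists were chosen with earlier results of these data known. Named genes are the 7 members, the 4 most abundant of each list (1 of them is not reported here), genes starting within 2000 bases of a member on the other strand, and the 8 most similar profiles. Other named genes were chosen after their values were seen.

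Names of the activated libraries carry a mouse tag (WT1 to WT3). WT1 and WT2 occur in both runs of library numbers, and the labels do not say whether these are the same mice. A block by tag and run, which takes them as different mice and so as 5 donors, pairs 3 media with 3 lactate libraries and leaves media replicate 2 and lactate replicate 3, which share a tag with others, adding nothing to the difference. A block by tag alone was a later addition, chosen with the values known. Deviations from the group means correlated across genes at 0.37, 0.21 and 0.55 within the 3 pairs. Outside them the highest value was 0.37, for media replicate 4 with lactate replicate 3 (same run). Next came 0.30, for media replicate 2 with lactate replicate 2 (same run). The rest ran from -0.44 to 0.08. No outside pair reached 0.55, and whether the correlation is particular to the tags was not settled. Library numbers fall into a low run (3 naive, 3 media and 2 lactate libraries) and a high run (1 naive, 1 media and 2 lactate libraries). Identifiers of the 7 members were matched in GENCODE M21, and starts were taken from RefSeq. The labels tie no naive library to an activated one. P-values measure the spread between these libraries.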

Additional observations from a re-analysis of the deposited data

Results flagged for a closer look

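The check took 30 genes: the members, the 4 most abundant of each list, the tested neighbours on the other strand and Rcc1. A sample stood far from the others of its group of 4 in 6 of 90 groups, and chance flags about 1 in 20 groups. Other genes with printed values, among them Snord87, Snora73b, Snhg4 and Snhg20, were not checked. Snhg1 had 119 CPM in lactate replicate 1, with the nearest other lactate library at 161 CPM. That library was also the lowest of its group for Gas5, Snhg5, Snhg6, Snhg8 and Snhg12 and the highest for Snhg3. Without it the lactate against media difference of Snhg1 was -0.10 in place of -0.21 on the log2 scale, and neither passed. Rps3 had 1832 CPM in the same library, against 2348 CPM in the nearest other. Nop56 had 76.4 CPM in media replicate 2 (nearest other 120.4 CPM). Snhg17 had 59.3 CPM in naive replicate 3 (nearest other 51.2 CPM). Smg1 had 634 CPM in naive replicate 2 (nearest other 714 CPM), and Casc3 had 97.1 CPM in media replicate 4 (nearest other 111 CPM).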

How the results depend on the processing

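The count of members called for lactate against media was 0 with edgeR and 2 (Snhg3 and Snhg8, both higher) with DESeq2, with only the compared groups in the fit, with the replicate block by mouse tag and run, and at an adjusted p of at most 0.05. It was 1 (Snhg3) with the term for the library run, 1 (Snhg8) with the replicate block by tag alone, and 0 to 2 when single libraries were left out, 2 being the value without naive replicate 4. The replicate block by title number, whose numbers do not all follow the tags, left it at 0. No block changed another call of a member. Genes called in all were 3451 in the main fit, of 13767 tested. The number was 4551 with DESeq2, 4603 with only the compared groups in the fit and 3572 with the term for the library run. By block it was 3654 for tag and run, 3917 for tag alone and 3256 for title number. Over all genes the number called for lactate against media was 5461 at an adjusted p of at most 0.05. It was 2252 (without media replicate 2) to 4845 (without naive replicate 4) when single libraries were left out. Members called against naive cells were 3 to 5 in media, where 7074 to 9387 genes were called in all. With lactate they were 4 in each setting tried, all higher, where 8113 to 10266 genes were called. In 5 settings for media 1 of the members called, Snhg8, was lower. These were DESeq2, its size factors, an adjusted p of at most 0.05, and removal of naive replicate 4 or media replicate 4. Differences near 0 changed sign: with single libraries left out, lactate against media ran from -0.13 to 0.0241 for Snhg6 and from -0.0076 to 0.15 for Gas5, and lactate against naive from -0.10 to 0.10 for Snhg8 and from -0.21 to 0.15 for Snhg12. For Snhg8 that comparison was -0.035 with DESeq2 and -0.035 with DESeq2's size factors. For Snord87 lactate against naive was 0.04, and -0.0519 with DESeq2, -0.0505 with its size factors, -0.0155 with only the compared groups in the fit and -0.21 to 0.1965 with single libraries left out. With DESeq2, lactate against media passed for Snord87 (adjusted p = 0.0081) and Snora73b (adjusted p = 0.00646). The block by tag and run passed Snora73b (1.56, adjusted p = 0.00125), and that by tag alone did not (1.15, adjusted p = 0.0304). The cause of these shifts was not tested. With DESeq2's size factors Snhg1 missed the threshold in media against naive cells (0.52, adjusted p = 0.0107 from edgeR) and Snhg8 passed it (-0.56, adjusted p = 0.00637), as it did with DESeq2 (-0.56, adjusted p = 0.00173). Applying the settings to the other gene lists and to the 2 snoRNAs, and the block by tag alone, were decided after the data had been seen.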

Other observations

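Of the other non-coding hosts, Snhg4 and Snhg20 are given here because they were uneven between libraries, a choice made after their values were seen. Snhg4, a host of H/ACA snoRNAs, had 53.3 and 39.7 CPM in lactate replicates 1 and 2 and 13.3 and 16.3 CPM in lactate replicates 3 and 4. In media it had 14.5, 13.5, 18.2 and 10.5 CPM, and in naive cells 5.38 to 11.5 CPM. The first pair of lactate libraries has low running numbers and the second pair high ones. The log2 difference between lactate and media was 1.58 among low numbers and 0.48 among high numbers, and over all libraries 1.11 (standard error 0.40, adjusted p = 0.0416 from edgeR). Snhg20 had 14.6 to 25.8 CPM in the activated libraries with low numbers and 4.39 to 7.499 CPM in those with high numbers, of either treatment, while naive libraries had 15.8 to 18.5 CPM with no such step. Whether the runs differ was not tested.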
